A study of Mus musculus with 2 samples.

Results

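The macrophage and early microglia genes are 32 mouse genes chosen by symbol: general myeloid genes, genes of yolk sac and border macrophages, and genes of microglia, the resident macrophages of the brain. They were measured by total RNA sequencing of hindbrain, the embryonic source of pons, cerebellum and medulla, from B6NCrl mouse embryos at 10.5 days. The study holds 1 group of 2 pools with males and females mixed, replicate 1 from 69 embryos and replicate 2 from 51, so no condition is compared. From each pool 10 ng of RNA over 200 nucleotides entered the library. All 32 genes had a row in the tables, of 43346 annotated genes.

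Microglia descend from macrophage progenitors of the yolk sac, which enter the neural tube around this stage, and related macrophages settle in the meninges and around vessels. Their survival depends on the receptor CSF1R and its ligands CSF1 and IL34, and their fate on the transcription factors PU.1 (Spi1), IRF8 and RUNX1. The adaptors TYROBP and FCER1G carry signals of surface receptors, in the case of TYROBP those of TREM2 among others, through an activation motif called ITAM. The 3 C1q chains assemble the recognition unit of the classical complement pathway. Mature microglia are marked by P2ry12, Tmem119 and Siglech, while Mrc1, Cd163, Lyve1 and Pf4 are more typical of yolk sac and border macrophages.

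Libraries held 38170090 gene counts in replicate 1 and 36382245 in replicate 2, and levels are in TPM, the share of each transcript after correction for length. Added spike-in RNAs made up 13.03% of all TPM in replicate 1 against 7.82% in replicate 2. Of genes known from the hindbrain side of the isthmus and the rhombomeres, Irx3 stood at 37.9 TPM in replicate 1 against 33.6 TPM in replicate 2, and Gbx2 at 33.1 TPM in replicate 1 and 23.1 in replicate 2. Egr2, a rhombomere segment gene, was below 1 TPM in replicate 1, with 0.45 TPM, against 1.72 TPM in replicate 2. Lhx2, best known from the forebrain, was also present, at 21.2 TPM in replicate 1 against 14.7 TPM in replicate 2. Vax1, also known from the forebrain, was below 1 TPM in both pools, at 0.20 TPM in replicate 1 and 0.09 in replicate 2. In whole tissue, fewer cells of a type and less RNA per cell cannot be told apart.

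Of the 32 genes, 25 (78.1%) were detected, meaning at least 1 TPM in both libraries, against 33.0% of all annotated genes. Another 5 (Il34, Itgam, Cd14, Cd163 and Siglech) were below 1 TPM in both pools, and Lyve1 and P2ry12 were below it in replicate 2 alone. The summed level was 351 TPM in replicate 1 against 265 TPM in replicate 2, or 0.0351% of the library against 0.0265%. Most levels were low for detected genes, whose median was 16.8 TPM on the mean of both pools. On that mean, 7 of the 32 exceeded it (Pf4, Dab2, Tmem119, C1qb, Stab1, Laptm5 and Tyrobp). Tyrobp was below this value in replicate 2 (14.3 TPM), and Fcer1g was above it in replicate 1 (18.2 TPM). The highest 4, Pf4, Dab2, Tmem119 and C1qb, held 45.0% of the summed TPM in replicate 1 and 46.7% in replicate 2.

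**Figure D1:**
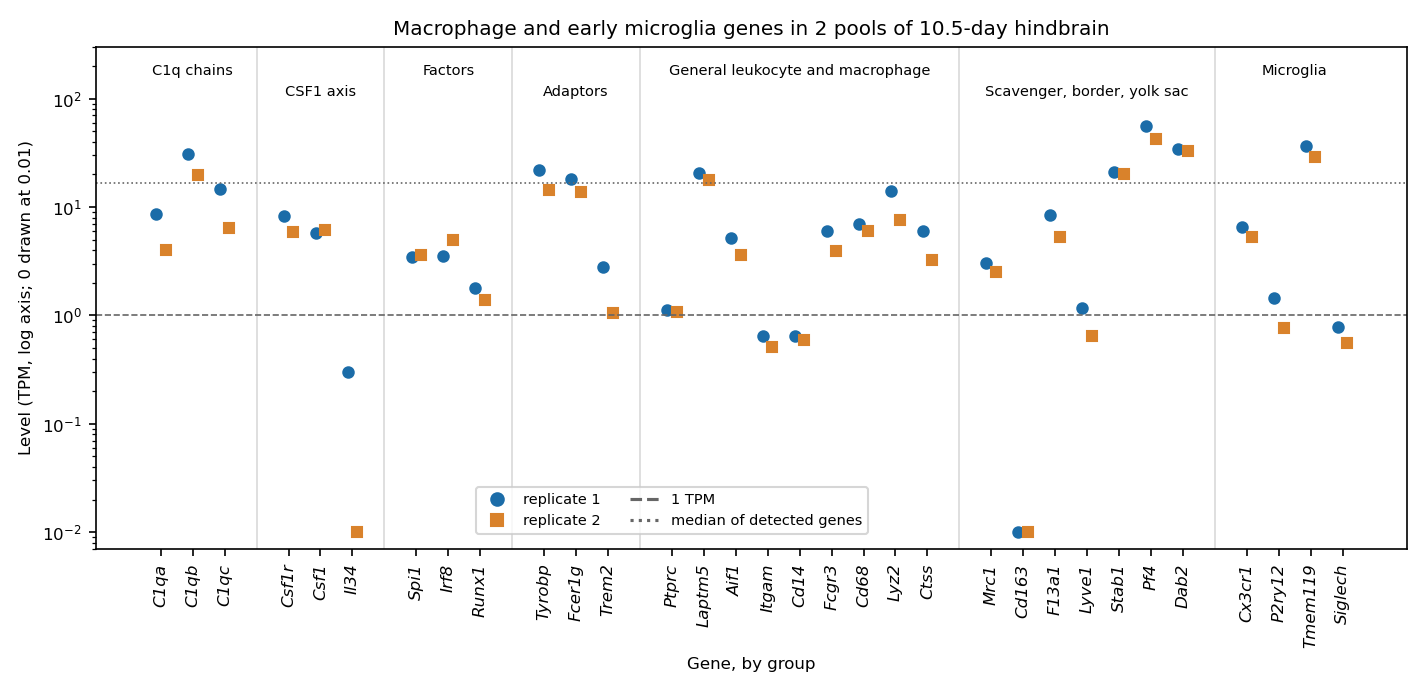
Level of each of the 32 genes in TPM on a log axis, circles for replicate 1 and squares for replicate 2, grouped by role, with values of 0 drawn at 0.01. Pf4 was highest, at 56.4 TPM in replicate 1 against 42.4 TPM in replicate 2, and Cd163 was at 0 in both.

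The promoters of these genes are shown because PU.1, encoded by Spi1, is a lineage factor of macrophages whose core site can be searched for; the 4 windows printed are those of C1qb and C1qc, of Trem2 and of Pf4, chosen after the search among genes with a match and a high level or ratio, and the window of P2ry12, another gene past 2-fold in the pool ratios, held no match. The search used windows of the RefSeq promoter table (GRCm38.p6) for 24 of the 32 genes, 30 windows in all. C1qa, Cd14, Csf1r, Il34, Lyve1, Spi1, Tmem119 and Tyrobp had no window in the search. This need not mean that the table lacked one, and the member shares leave these genes out. The 250 bases before each start were searched on both strands for GAGGAA, the core that PU.1 binds. It occurred in 18 of 30 windows (60.0%), against 23.3% of the 32851 windows of all genes, and in 16 of the 24 genes, against 25.9% of genes. Windows of the same gene can overlap, and those of Fcgr3 held the same match, which was counted in both. A longer form, GAGGAAGT, which contains the core and was chosen after the data were seen, lay in 2 windows (6.67%), those of C1qc and Pf4, against 2.44% of all windows. A match to letters is a description, not a measured binding site. The windows of C1qb (chr4:136886201-136886450, minus strand), C1qc (chr4:136892915-136893164, minus strand), Trem2 (chr17:48346151-48346400, plus strand) and Pf4 (chr5:90772185-90772434, plus strand) follow, each 5′ to 3′ on the gene's strand and ending just before the start, with capitals for GAGGAA or its reverse complement and, in C1qc and Pf4, for the longer form.
C1qb: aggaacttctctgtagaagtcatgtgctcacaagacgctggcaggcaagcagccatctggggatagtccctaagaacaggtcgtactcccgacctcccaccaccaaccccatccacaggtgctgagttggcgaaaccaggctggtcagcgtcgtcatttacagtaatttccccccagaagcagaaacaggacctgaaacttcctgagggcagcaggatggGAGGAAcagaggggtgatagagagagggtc
C1qc: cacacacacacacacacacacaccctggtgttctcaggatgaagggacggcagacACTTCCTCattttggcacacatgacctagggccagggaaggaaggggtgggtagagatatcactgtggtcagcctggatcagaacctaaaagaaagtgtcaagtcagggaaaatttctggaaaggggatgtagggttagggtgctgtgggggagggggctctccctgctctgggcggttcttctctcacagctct
Trem2: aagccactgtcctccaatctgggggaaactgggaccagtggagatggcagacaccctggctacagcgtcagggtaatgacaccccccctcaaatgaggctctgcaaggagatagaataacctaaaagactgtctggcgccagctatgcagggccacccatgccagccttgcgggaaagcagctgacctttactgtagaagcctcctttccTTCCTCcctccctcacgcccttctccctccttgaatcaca
Pf4: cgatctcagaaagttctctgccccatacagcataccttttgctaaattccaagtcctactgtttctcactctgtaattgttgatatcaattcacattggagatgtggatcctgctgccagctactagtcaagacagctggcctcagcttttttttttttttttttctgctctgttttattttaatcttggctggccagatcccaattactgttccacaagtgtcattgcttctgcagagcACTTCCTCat
The match lay 25 to 30 bases before the start in C1qb on the gene's own strand. On the opposite strand, the match lay 35 to 40 bases before the start in Trem2, 188 to 195 in C1qc and 3 to 10 in Pf4. Other windows with the core were those of Aif1, Cd68, Ctss, Dab2, F13a1, Fcgr3, Itgam, Laptm5, Mrc1, Ptprc, Runx1 and Stab1. Of these, Mrc1 held 3 matches and Itgam 2.

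Of the C1q chains, C1qb lay above the median of detected genes and C1qc and C1qa below it, and C1qc had the highest ratio between the pools of all members with at least 1 TPM. C1qb was at 30.7 TPM in replicate 1 against 19.8 TPM in replicate 2. C1qc was at 14.8 TPM in replicate 1 and 6.35 in replicate 2, and C1qa at 8.61 TPM in replicate 1 and 4.03 in replicate 2. C1qb was thus the highest chain in each pool and C1qa the lowest, although the 3 chains are known to assemble in equal numbers. Relative to C1qb, C1qa stood at 0.281 of its TPM in replicate 1 and 0.204 in replicate 2, and C1qc at 0.481 in replicate 1 and 0.321 in replicate 2. The genes lie side by side on the minus strand of chromosome 4 (mm10), C1qb at 136880129 to 136886187, C1qc at 136889804 to 136893065 and C1qa at 136895917 to 136898803. Estimated reads (expected counts) in replicate 1 were 820 for C1qb, 440 for C1qc and 219 for C1qa. In replicate 2 they were 474 for C1qb, 170 for C1qc and 92 for C1qa.

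Other complement genes were low. Of 10, 3 were detected, among them the C3a receptor C3ar1 (1.76 TPM in replicate 1 and 1.42 in replicate 2) and factor B, Cfb (1.51 TPM in replicate 1 and 1.61 in replicate 2). The proteases that C1q activates were lower still, C1s1 at 0.40 TPM in replicate 1 against 0.63 TPM in replicate 2 and C1ra at 0.28 TPM in replicate 1 and 0.06 in replicate 2. C3 was at 0.09 TPM in replicate 1 and 0.07 in replicate 2, and C4b was listed at 0 in both pools. Each of the 10 stayed below every C1q chain in both pools.

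The receptor Csf1r was at 8.33 TPM in replicate 1 against 5.85 TPM in replicate 2 (7.09 ± 1.75 TPM; SD, n = 2). Csf1, its ligand and also made by many other cell types, was at 5.78 TPM in replicate 1 and 6.11 in replicate 2, so that Csf1 was 0.694 of the receptor's TPM in replicate 1 and 1.04 in replicate 2. The alternative ligand gene Il34, known in the adult brain from neurons, had 12 reads in replicate 1 (0.30 TPM) and none in replicate 2. A count of 0 in replicate 2 allows up to 0.137 TPM at 3 reads, by counting alone. The deposited bounds for Il34 in replicate 2 reached higher, 0.068 to 0.863 TPM, with a posterior mean of 0.41 TPM. At these depths Csf1 was the ligand above 1 TPM. Csf1 was split over 2 coding transcripts in the main, Csf1-201 with 57.1% of its TPM in replicate 1 and 58.9% in replicate 2, and Csf1-202 with 29.4% in replicate 1 and 33.9% in replicate 2. The main Csf1r transcript shares 18.6% of its exon bases with Hmgxb3 on the opposite strand (14.0 TPM in replicate 1 against 14.5 TPM in replicate 2), and whether counting used strand is not given in the sources used here, so reads of that stretch cannot be assigned with certainty. Of 5 related receptor genes, Kit (20.4 TPM in replicate 1 and 17.1 in replicate 2), Csf2ra (10.6 TPM in replicate 1 and 8.75 in replicate 2) and Csf2rb (1.82 TPM in replicate 1 and 2.88 in replicate 2) were detected, and the granulocyte receptor gene Csf3r and Flt3 were not.

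The 3 transcription factors were low but detected. Spi1 (PU.1) was at 3.47 TPM in replicate 1 against 3.64 TPM in replicate 2. Irf8, which acts with PU.1 in macrophages, was at 3.57 TPM in replicate 1 and 4.94 in replicate 2. Runx1, also a factor of blood and sensory neuron development, was at 1.79 TPM in replicate 1 and 1.38 in replicate 2. Irf8 was the only one of the 3 with both TPM and scaled counts higher in replicate 2 (scaled difference -0.24, log2), and its counting interval, -0.49 to 0.00, touched 0. Spi1 had a higher TPM in replicate 2 but, in TMM-scaled counts, a difference of 0.17 (log2) towards replicate 1, which became -0.64 under spike-in scaling. Its short transcript Spi1-203 held 8.05% of its TPM in replicate 1 against 15.9% in replicate 2. Of 11 other myeloid factors 9 were detected, among them Klf6 (22.1 TPM in replicate 1 and 22.6 in replicate 2) and Sall1 (14.3 TPM in replicate 1 and 9.39 in replicate 2), known from microglia and from neural progenitors. Cebpa, a factor of granulocyte and monocyte precursors, was at 0.32 TPM in replicate 1 and 0.42 in replicate 2.

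The adaptor genes were among the higher members and the receptor gene Trem2 among the lower ones. Tyrobp was at 22.1 TPM in replicate 1 against 14.3 TPM in replicate 2, and Fcer1g at 18.2 TPM in replicate 1 and 13.7 in replicate 2. Trem2, the lipid receptor that signals through TYROBP, was at 2.77 TPM in replicate 1 and 1.05 in replicate 2. Tyrobp stood at 7.99 times the TPM of Trem2 in replicate 1 and 13.6 times in replicate 2. Fcer1g stood at 3.01 times the TPM of the IgG receptor gene Fcgr3 in replicate 1 and 3.49 times in replicate 2. Trem2 rested on 79 reads in replicate 1 and 32 in replicate 2. Of 10 further genes of ITAM signalling 9 were detected, the highest being the kinase Lyn (7.86 TPM in replicate 1 and 7.94 in replicate 2) and the phosphatase Ptpn6 (6.55 TPM in replicate 1 and 6.67 in replicate 2).

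General leukocyte genes ranged widely. Laptm5, a lysosomal membrane protein of blood cells, was at 20.5 TPM in replicate 1 against 17.8 TPM in replicate 2. Lyz2, the macrophage lysozyme, was at 14.0 TPM in replicate 1 and 7.67 in replicate 2. Below these 2 genes lay 4 of middle level. Cd68, a lysosomal glycoprotein of phagocytes, was at 6.96 TPM in replicate 1 and 6.07 in replicate 2. The lysosomal protease gene Ctss was at 6.07 TPM in replicate 1 and 3.25 in replicate 2. The IgG receptor Fcgr3 was at 6.04 TPM in replicate 1 and 3.93 in replicate 2, and Aif1, which encodes the microglial marker IBA1, at 5.23 TPM in replicate 1 and 3.59 in replicate 2. The surface markers used most to sort leukocytes were the lowest. Ptprc (CD45) was close to the limit at 1.13 TPM in replicate 1 and 1.08 in replicate 2. The integrin Itgam (CD11b) was below it in both pools, at 0.64 TPM in replicate 1 and 0.51 in replicate 2. So was the lipopolysaccharide co-receptor Cd14, at 0.65 TPM in replicate 1 and 0.59 in replicate 2. Itgb2, the partner chain of CD11b, was likewise below 1 TPM (0.98 in replicate 1 and 0.86 in replicate 2). Lyz2 was clear of its near copy Lyz1, which held 1.03 reads in replicate 1 and 1.0 in replicate 2, and the related Fcgr4 held 16 in replicate 1 and 7 in replicate 2.

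Genes of scavenger, border and yolk sac macrophages held the highest single level and the only gene at 0 in both pools. Pf4, which encodes platelet factor 4, was at 56.4 TPM in replicate 1 against 42.4 TPM in replicate 2, above 75.8% of detected genes. The endocytic adaptor Dab2 was at 34.1 TPM in replicate 1 and 32.6 in replicate 2. Stab1, a scavenger receptor, was at 21.04 TPM in replicate 1 and 20.31 in replicate 2. The pools were close for these 2 genes on the TPM scale. F13a1, a coagulation factor subunit, was at 8.53 TPM in replicate 1 and 5.33 in replicate 2. The mannose receptor Mrc1 (CD206) was at 3.07 TPM in replicate 1 and 2.50 in replicate 2. The hyaluronan receptor Lyve1 was at 1.17 TPM in replicate 1 and 0.64 in replicate 2. Cd163, the haemoglobin scavenger receptor of mature macrophages, had no read in either pool, which allows up to 0.0255 TPM in replicate 1 against 0.0284 TPM in replicate 2 at 3 reads. Such limits cover counting error alone, and the deposited upper bounds for Cd163 were higher, 0.0397 TPM in replicate 1 and 0.0440 in replicate 2.

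Several of these genes are known from other cells, whose markers were present. Pf4 is a platelet gene, and 6 of 9 megakaryocyte and platelet markers were detected with a summed 31.3 TPM in replicate 1 against 22.9 TPM in replicate 2, among them Gp1bb (9.15 TPM in replicate 1 and 4.63 in replicate 2), Ppbp (8.07 TPM in replicate 1 and 6.18 in replicate 2) and Itga2b (6.66 TPM in replicate 1 and 4.72 in replicate 2). Pf4 alone exceeded that sum in each pool. Stab1, Dab2 and Lyve1 are also endothelial or lymphatic, and all 10 endothelial markers were detected (summed 205 TPM in replicate 1 against 232 TPM in replicate 2), as were the 4 lymphatic markers, led by Pdpn (90.1 TPM in replicate 1 and 71.9 in replicate 2), which neural tissue expresses too. Tmem119 is known from bone-forming mesenchyme besides microglia, and all 10 mesenchyme markers were detected, with Col3a1 at 311 TPM in replicate 1 and 313 in replicate 2. The part of these cells in the levels of the named genes was not tested.

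Of the microglia genes, Tmem119 was at 36.8 TPM in replicate 1 against 29.1 TPM in replicate 2, and the fractalkine receptor Cx3cr1 at 6.53 TPM in replicate 1 and 5.31 in replicate 2. The purinergic receptor P2ry12 was at 1.46 TPM in replicate 1 and 0.76 in replicate 2, and the lectin Siglech at 0.79 TPM in replicate 1 and 0.56 in replicate 2. Tmem119 was thus 5.63 times Cx3cr1 in replicate 1 and 5.47 times in replicate 2, while the other markers of mature microglia were near or below the limit. Of 10 further microglia genes 5 were detected, the highest being Tgfbr1 (68.5 TPM in replicate 1 and 77.5 in replicate 2), made by most tissues. Fcrls, more particular to microglia, was at 5.98 TPM in replicate 1 and 3.21 in replicate 2, Gpr34 at 1.77 TPM in replicate 1 and 0.87 in replicate 2 and P2ry13 at 0.59 TPM in replicate 1 and 0.43 in replicate 2. Of 11 further border or yolk sac macrophage genes 4 were detected, with Apoe far above the rest at 184 TPM in replicate 1 and 151 in replicate 2 and Folr2 at 0.83 TPM in replicate 1 and 0.51 in replicate 2.

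Markers of other blood cells were mixed. Of 5 monocyte markers 2 were detected (summed 39.2 TPM in replicate 1 against 41.5 TPM in replicate 2), Vcan and Plac8, which other cells also make, while the defining markers were near 0, Ccr2 at 0.04 TPM in replicate 1 against 0.07 TPM in replicate 2 and Ly6c2 at 0.09 TPM in replicate 1 and 0 in replicate 2. Of 9 neutrophil and granulocyte markers 2 were detected (summed 14.7 TPM in replicate 1 against 12.7 TPM in replicate 2). The granule genes of mature neutrophils S100a9, Ngp and Camp were at 0 in both pools, but Prtn3, a protease of early granulocyte and monocyte precursors, was at 12.1 TPM in replicate 1 and 8.45 in replicate 2 and Mpo at 2.27 TPM in replicate 1 and 4.22 in replicate 2. Blood progenitor genes were present in 6 of 8 cases (Cd34 at 42.9 TPM in replicate 1 and 49.6 in replicate 2) and all 10 erythroid genes were detected. Of 8 T and NK cell genes only Lck reached the limit (list sum 5.26 TPM in replicate 1 against 5.91 TPM in replicate 2), and Cd3e, Cd3d and Cd8a were at 0 in both pools. Of 6 B cell genes only Pax5, also a gene of the isthmus, did (list sum 5.42 TPM in replicate 1 against 5.71 TPM in replicate 2), and Ms4a1 was at 0 in both pools. None of 6 mast cell genes was detected in both pools. All 10 lysosomal genes, which most cells express, were detected, with means of 18.2 to 242 TPM.

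Between the pools most of the members tested differed in a shared direction relative to the median of all genes. The ratio used was the log2 of replicate 1 over replicate 2 in counts scaled by TMM, a method that sets the bulk of genes to no change, for genes with a mean of at least 1 TPM. Of the 26 members that passed this filter, 24 were higher in replicate 1 (background 50.1% of 15006 genes) and 2, Csf1 and Irf8, were higher in replicate 2, whereas under spike-in scaling only 6 of the 26 stayed above 0. The median over the 26 was 0.54, against 0.00 over all genes. Spike-in scaling moved the median of all genes to -0.81 and that of the members to -0.28. A change of scaling shifts all genes by nearly the same amount. The gap to all genes, 0.53 against 0.54 under TMM, was therefore nearly the same by construction. So was the number above the median of all genes, 24 of the 26 under either scaling.

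Of the 26, 4 were at least 2-fold higher in replicate 1 (background 4.3%), and under spike-in scaling none of the 4 reached 2-fold while all kept their sign. C1qc differed most, 2.44-fold (95% counting interval 2.05 to 2.94), followed by Trem2 at 2.26-fold (1.53 to 3.65), C1qa at 2.23-fold (1.76 to 2.91) and P2ry12 at 2.04-fold (1.41 to 3.18). No member was 2-fold higher in replicate 2 (background 1.59%) under TMM, while Irf8 was so under spike-in scaling, at -1.06 (log2) beside the -0.81 of all genes. P2ry12 passed the filter on mean TPM through replicate 1, since it was below 1 TPM in replicate 2. Of the 25 members with at least 1 TPM in both pools, a filter added after the data were seen, 3 were at least 2-fold higher in replicate 1 (background 3.22%) and 23 were higher by any amount (background 49.8%), with none 2-fold higher in replicate 2 (background 0.812%), all in TMM-scaled counts; under spike-in scaling none of the 3 reached 2-fold and 5 of the 25 stayed above 0. Just short of 2-fold were Ctss, at 1.95-fold, and Lyz2, at 1.91-fold. Among genes with a mean count in the members' range of 55.5 to 2441.5 reads, a comparison added after the data were seen, the shares past 2-fold were 5.04% towards replicate 1 and 1.24% towards replicate 2, and 53.1% were higher in replicate 1 by any amount.

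**Figure D2:**
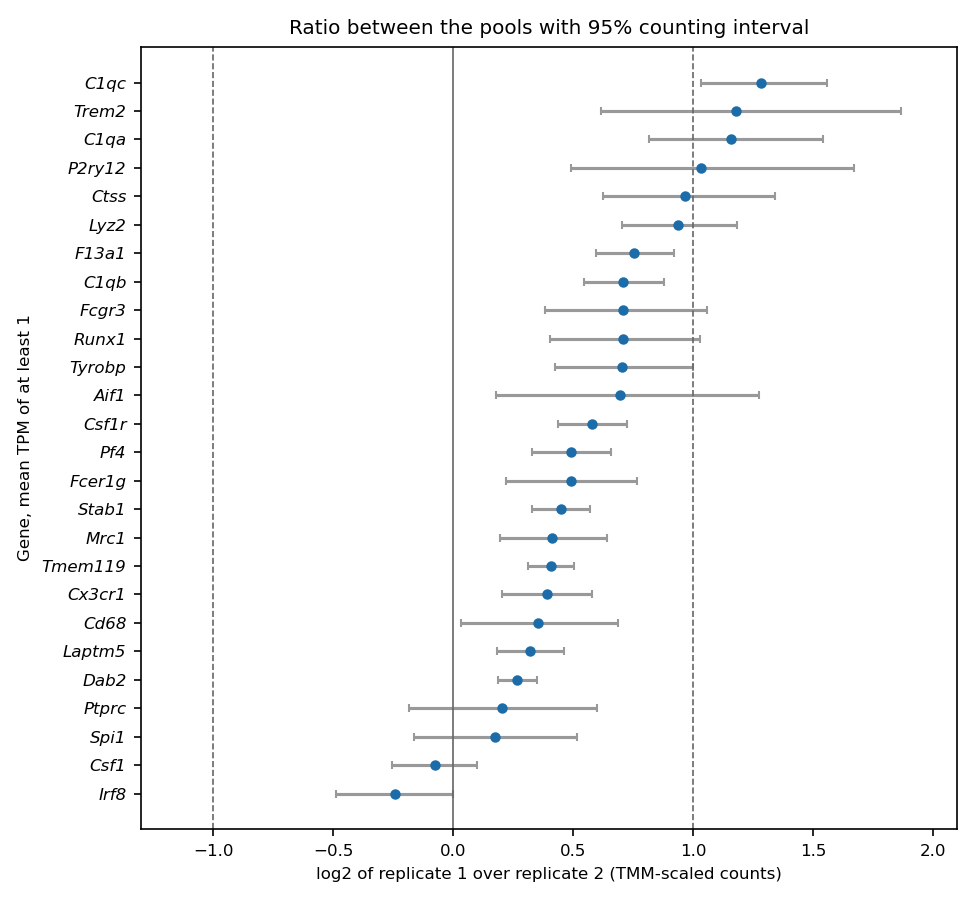
Log2 ratio of replicate 1 over replicate 2 in TMM-scaled counts for the 26 genes with a mean of at least 1 TPM, with 95% counting intervals and dashed lines at 2-fold. The ratios ran from -0.24 for Irf8 to 1.28 for C1qc, and 24 lay above 0, of which 18 turned below 0 under spike-in scaling.

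For most members tested the gap exceeded counting error but not 2 SD of the spread between pools. The counting interval lay above 0 for 22 of the 26 genes in TMM-scaled counts and below 0 for none; it included 0 for Csf1, Spi1, Ptprc and Irf8. Over 14385 genes the biological coefficient of variation between the pools was 0.204, and at the members' levels the trended value ran from 0.154 for Dab2 to 0.288 for Spi1. This spread was estimated from the same 2 libraries, so any shift between the pools is part of it. Staying within 2 SD therefore does not show that the pools were alike. With that spread added to the counting error, 1 member, C1qc, lay more than 2 SD from 0, at 2.26 SD, and 16 lay beyond 1 SD. Neither these numbers nor the 22 intervals above 0 were counted over all genes. They have no background share and cannot be read as particular to the members. With 1 library a side there is no replicate check and no test of any of these ratios.

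By role, the C1q chains had the highest median ratio, 1.16, then the adaptors and Trem2 at 0.70, the general leukocyte genes at 0.70, the scavenger, border and yolk sac genes at 0.45, the microglia genes at 0.41, Csf1r with Csf1 at 0.25 and the transcription factors at 0.17, all in TMM-scaled counts; under spike-in scaling only the C1q median stayed above 0, at 0.35. Csf1r itself was at 0.58, Tyrobp at 0.70, Cx3cr1 at 0.39, Pf4 at 0.49, Tmem119 at 0.41, Dab2 at 0.27 and Laptm5 at 0.32, each of them below 0 under spike-in scaling. Without the 8 genes best known from other cells (Csf1, Il34, Dab2, Tmem119, Pf4, F13a1, Stab1 and Lyve1), a set chosen after the data were seen, the median ratio was 0.70. Related genes outside the members had medians under TMM below the 0.54 over the 26 members tested, but not below every member group. Other microglia genes were at 0.33 (4 of 7 higher in replicate 1), above Csf1r with Csf1 and above the member transcription factors. Other border or yolk sac macrophage genes were at 0.01 (2 of 4). Other myeloid factors were at 0.09 (6 of 10) and ITAM genes at 0.08 (7 of 9). Fc and lipopolysaccharide receptor genes were at 0.02 (3 of 4). Other complement and CSF receptor genes were each at 0.21 (2 of 3), above the member transcription factors, and leukocyte integrins at -0.30 (1 of 2). All were negative on spike-ins.

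Markers of other cell types also had ratios away from 0. The median ratio was 0.97 for neuron markers (8 of 8 higher in replicate 1, 4 at least 2-fold, and 5 of 8 under spike-in scaling), 0.41 for megakaryocyte and platelet markers, 0.29 for lymphatic markers, 0.23 for mesenchyme, 0.18 for neural progenitors, -0.03 for endothelium and -0.15 for erythroid genes, in TMM-scaled counts; of these 7 lists, only the neuron list kept a median above 0 under spike-in scaling, at 0.15. The mast cell list had 1 gene with a mean of at least 1 TPM, with a ratio of 1.90 in TMM-scaled counts and 1.12 under spike-in scaling. Summed over the 6 mast cell genes the level was 1.69 TPM in replicate 1 against 0.52 TPM in replicate 2. That 1 gene thus passed the filter on mean TPM through replicate 1 alone, the pool where it was higher. The B cell list had 2 genes with a mean of at least 1 TPM, of which only Pax5 reached 1 TPM in both pools. Its median was 0.53, which became -0.26 under spike-in scaling. Lysosomal genes had a median of 0.15 and blood progenitor genes one of -0.07 in TMM-scaled counts, both negative under spike-in scaling. Summed neuron marker levels were 1882 TPM in replicate 1 against 1171 TPM in replicate 2. The part of tissue composition in the macrophage ratios was not tested.

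**Figure D3:**
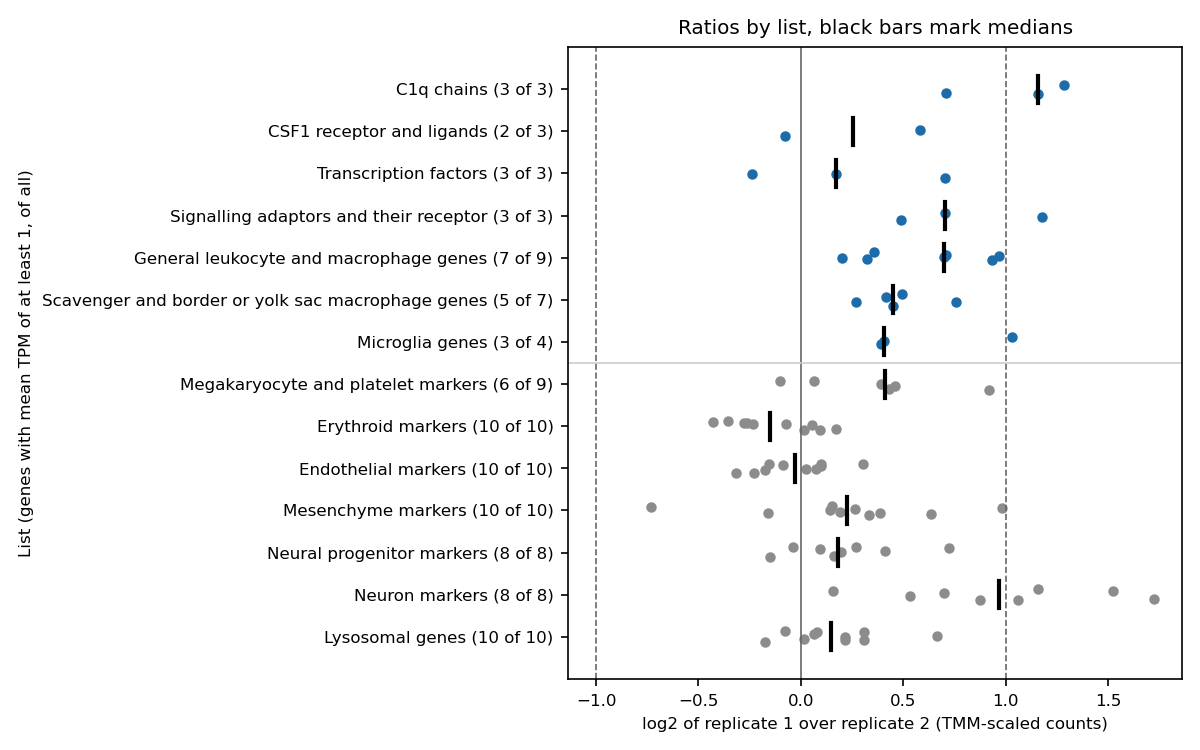
Log2 ratio of replicate 1 over replicate 2 in TMM-scaled counts by list, blue dots for macrophage gene groups above the line and grey dots for other lists below it, black bars for medians and dashed lines at 2-fold. The C1q median was 1.16 and the neuron median 0.97, while erythroid and endothelial medians were -0.15 and -0.03; under spike-in scaling only the C1q and neuron medians of the lists drawn stay above 0.

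Transcript estimates bear on what some levels mean. In 21 of the 32 genes at least 90% of TPM came from coding transcripts in both pools, and 8 genes, among them C1qa, C1qb, Tyrobp, Lyz2 and Pf4, had a single transcript above 0. Stab1 was the farthest from this, with 22.6% of TPM in coding transcripts in replicate 1 and 17.6% in replicate 2. Its transcript of 242 bases, Stab1-202, took 7.63 TPM in replicate 1 against 7.95 TPM in replicate 2, or 36.3% of the gene against 39.1%. This came from 29.5 reads in replicate 1 and 27.5 in replicate 2. The full-length Stab1-201, of 7999 bases, took 4.33 TPM in replicate 1 and 2.79 in replicate 2, from 925 reads in replicate 1 and 534 in replicate 2. Of the bases of Stab1-202, 44.6% overlap exons of Nt5dc2 on the opposite strand, a gene at 455 TPM in replicate 1 against 476 TPM in replicate 2. The Stab1 level over coding transcripts of at least 500 bases was thus 4.33 TPM in replicate 1 against 3.45 TPM in replicate 2, well under the level of the whole gene.

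**Figure D4:**
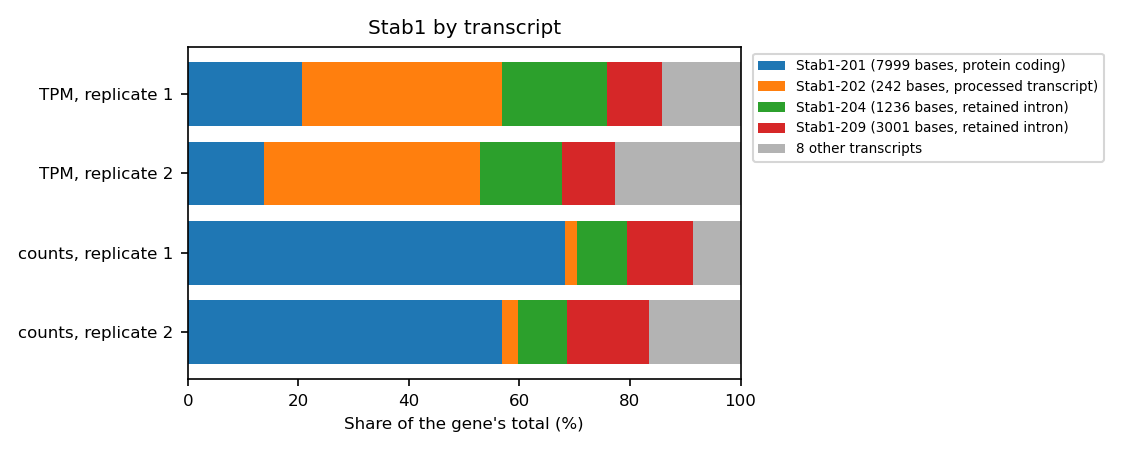
Share of Stab1 in each transcript, in percent of the gene's TPM (upper bars) or counts (lower bars), replicate 1 above replicate 2 in each pair. Stab1-202, of 242 bases, held 36.3% of TPM in replicate 1 and 39.1% in replicate 2, but 2.17% of counts in replicate 1 and 2.93% in replicate 2.

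Other genes also had noncoding or short transcripts. In Aif1, a retained-intron transcript of 462 bases held 46.2% of the gene's TPM in replicate 1 against 49.9% in replicate 2 and left 2.70 TPM in replicate 1 and 1.56 in replicate 2 in coding transcripts of at least 500 bases. In Dab2, a retained-intron transcript of 476 bases held 14.8% in replicate 1 and 20.3% in replicate 2, and in Cd68 a noncoding transcript of 612 bases held 20.7% in replicate 1 and 28.5% in replicate 2. Of Ptprc, 79.8% of TPM in replicate 1 and 65.7% in replicate 2 was coding. Coding transcripts of at least 500 bases alone left 23 of the 32 genes at 1 TPM in both pools, a count added after the data were seen. The genes lost by this count were Ptprc (0.91 TPM in replicate 1 and 0.71 in replicate 2) and Trem2, which stood at 2.72 TPM in replicate 1 against 0.97 TPM in replicate 2. The share of the main transcript differed between the pools in some genes, though the same transcript led in both: Runx1-202 held 64.6% in replicate 1 and 45.7% in replicate 2, Ptprc-203 70.2% in replicate 1 and 38.0% in replicate 2, and Trem2-201 83.8% in replicate 1 and 61.9% in replicate 2.

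Overlap with other genes touched 14 of the 32, by protein-coding genes in 6. Of Itgam, 68.8% of TPM in replicate 1 and 67.3% in replicate 2 lay in a transcript that is not in GENCODE M21. Its named transcript Itgam-201 shares 73.7% of its exon bases with Gm49368 on the same strand, so the level of Itgam is uncertain. P2ry12 lies within Med12l on the opposite strand (2.62 TPM in replicate 1 against 3.17 TPM in replicate 2), though no exons are shared in the annotation. For 28 of the 32 genes the deposited expected counts were whole numbers in both pools at the 2 decimals given, and the exceptions were Csf1r, Fcgr3, Lyz2 and Stab1. The deposited bounds of TPM did not include the deposited TPM in at least 1 library for Il34, Irf8, Ptprc, Itgam and Cd163.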

How the data were processed

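Total RNA from 2 pools of hindbrain was sequenced. The deposited file notes name mm10 as assembly and M4 as annotation. For the aligner, the quantification program and the use of strand in counting, the sources used here give nothing. Per the file headers, the gene and transcript tables hold an expected count (reads estimated per gene, which need not be whole). Per the file headers they also hold TPM, a posterior mean TPM, and FPKM. The bounds of TPM, a signal value per gene, are also as deposited. The percent of each isoform in the deposited transcript tables was recomputed from TPM, which spike-ins share. With 1 group, no test was possible, and nothing says whether the pools differ in more than their embryos.

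Symbols, transcript classes and coordinates were taken from GENCODE M21 (also mm10) by gene ID with the version removed, for 42462 of 43346 genes. Expected counts were rounded and scaled by TMM (edgeR 4.0.16, R 4.3.3) with a prior count of 2. A gene entered ratios with a mean of at least 1 TPM, and called means at least 2-fold apart. Intervals are exact binomial (Clopper-Pearson) at 95% and leave out all error other than counting. PCR copies, which make reads dependent, are among what they leave out. The SD of a ratio adds the trended biological coefficient of variation, estimated from genes with a CPM of at least 1 in both libraries. The median level of a list is on log2(TPM + 0.1), which raises the values of low genes. Of other lists the text gives counts and the genes of highest level (up to 3) or widest ratio (up to 3) in each. Those named besides, such as C3, Cebpa, Itgb2, Folr2 and the region genes, were chosen after their values were seen. Promoters come from the RefSeq table. On simulated counts for all 43346 genes with 200 genes changed by 2 (log2), the median ratio found was 2.08.

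The members and lists were chosen with earlier results of these data known. Alternatives were DESeq2 1.42.0 size factors, total count, spike-in and deposited TPM scaling, other prior counts, filters, pseudocounts, FPKM and posterior mean TPM. Scripts ran in Python 3.11.15 with pandas 2.3.3, scipy 1.17.1, matplotlib 3.10.9 and numpy 2.4.6. Proteins were not analysed here, and some members of the other lists are not reported here by name.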

Additional observations from a re-analysis of the deposited data

How the results depend on the processing

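The number of detected members (25) ran from 22 to 30 over the TPM thresholds, FPKM, posterior mean TPM and coding transcripts alone, and from 25 to 27 with each replicate left out. The median member level, 2.45 in log2(TPM + 0.1), was 1.85 on FPKM and 2.19 to 2.62 with each replicate left out. Scaling on spike-ins changed the ratios most. The members' median ratio of 0.54 was -0.28, 0 members were at least 2-fold higher in replicate 1 against 4 in the scaling used, and 1 was at least 2-fold higher in replicate 2 against 0. Over all genes 150 and 3981 were then at least 2-fold higher in replicate 1 and in replicate 2, against 645 and 238. A mean of at least 5 TPM left 2 members at least 2-fold higher in replicate 1, and 267 and 59 genes in all for replicate 1 and replicate 2, and no filter gave 1809 and 1459; fewer or more genes entered by construction. At least 1 TPM in both pools, added after the data were seen, left 460 and 116 genes in all. The coefficient of variation of 0.204 was 0.241 without a filter and 0.175 at a CPM of at least 5. Of 130 single ratios under the other scalings and prior counts, 3 left their counting interval, while all 26 did so on spike-ins. For 22 members with several transcripts, the main transcript's share moved in 11 on expected counts and in 14 on posterior mean TPM. The cause of the spike-in shift was not tested. Reads of Trem2, P2ry12, Aif1 and the members below 1 TPM were under 100 in each pool, which limits what can be said of them. No paired analysis was possible because there is 1 group, and ratios need both libraries, so leaving out a replicate gives none.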
